A study of Mus musculus with 4 samples.

Results

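The nuclear genes of the mitochondrial respiratory chain and ATP synthase were examined in the NFIC peaks of mouse pancreas. Members were the peaks whose gene name, in the deposited annotation, starts with Nduf, Uqcr, Cox and a digit, or Atp5, or is one of the 4 SDH genes. The rule found 48 of the 15824 peaks in the list, named for 37 of its 9086 genes. The list rests on ChIP-Seq of pancreas from wild type mice of mixed strain, aged 8 to 12 weeks by the series' design text, with an antibody to NFIC (Bethyl, A303-123A). There were 3 NFIC ChIP libraries and 1 library of input DNA, and all were whole pancreas, so the cell type in which a site was occupied cannot be told apart. The deposited data are 1 merged peak list without values per library, so depth per library is unknown and no peak has a replicate error. The list holds no control condition, and all comparisons below are between genes or peaks of the same list.

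Oxidative phosphorylation is carried out by 5 complexes in the inner mitochondrial membrane. Complexes I (NADH dehydrogenase) and II (succinate dehydrogenase) pass electrons to ubiquinone, complex III (cytochrome *bc1* complex) passes them to cytochrome *c*, and complex IV (cytochrome *c* oxidase) passes them to oxygen. Complexes I, III and IV pump protons, and complex V (ATP synthase) uses the proton gradient to make ATP. A small set of subunits is encoded by mitochondrial DNA, whereas all others, and the factors that assemble the complexes, are encoded in the nucleus. The promoters of the nuclear genes are known for sites of NRF1, of ETS factors such as GABPA, of YY1, and of the nuclear receptor ESRRA. NFIC belongs to the nuclear factor I (NFI) family, whose dimers bind a palindrome made of TGGC and GCCA separated by 5 bases. NR5A2, an orphan nuclear receptor of acinar cells, binds a sequence that resembles that of ESRRA.

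The following sequences show the peaks and sites to which the results below refer. All were read from the RefSeq GRCm38 assembly (mm10), the build of the list, and each is written 5′ to 3′. The first 3 are whole peaks of 173 bases, on the strand of the gene, chosen because they hold the highest score of all member peaks (*Ndufa7*, chr17:33828936-33829108, in an intron of *Ndufa7*), the highest score within 150 bp of a transcription start site (TSS) (*Cox5a*, chr9:57521036-57521208, in the promoter), and the only exact NFI site (*Uqcr11*, chr10:80418377-80418549, in an intron of the neighbouring gene *Tcf3*). Capitals mark NFI sites with at most 1 mismatch in the 8 fixed bases, and in *Uqcr11* the exact site overlaps a second site with 1 mismatch.
Ndufa7: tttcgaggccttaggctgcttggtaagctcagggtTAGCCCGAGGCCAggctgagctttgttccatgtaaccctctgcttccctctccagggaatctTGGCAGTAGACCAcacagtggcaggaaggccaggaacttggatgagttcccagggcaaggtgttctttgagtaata
Cox5a: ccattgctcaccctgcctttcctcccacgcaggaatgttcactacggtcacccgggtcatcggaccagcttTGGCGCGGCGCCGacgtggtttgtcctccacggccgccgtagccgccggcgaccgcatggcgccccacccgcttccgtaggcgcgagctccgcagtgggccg
Uqcr11: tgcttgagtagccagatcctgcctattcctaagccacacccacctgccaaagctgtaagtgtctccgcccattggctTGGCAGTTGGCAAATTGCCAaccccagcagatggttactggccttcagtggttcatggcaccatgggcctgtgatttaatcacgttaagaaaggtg

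The next 4 show the NRF1 core GCATGCGC (capitals) found in the 200 bp centred on member peaks near a TSS, on the strand that carries it, at chr15:82354356-82354385 (*Ndufa6*, minus strand), chr9:108936669-108936698 (*Uqcrc1*, plus strand), chr5:90223980-90224009 (*Cox18*, plus strand) and chr15:102671071-102671100 (*Atp5g2*, plus strand). In *Uqcrc1* and *Cox18* the core is present on both strands at overlapping positions. The core of *Atp5g2* lies in the 200 bp window but outside the deposited peak, and the plus-strand core of *Uqcrc1* runs past the end of its peak, which holds the minus-strand one.
Ndufa6: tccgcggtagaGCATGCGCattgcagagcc
Uqcrc1: ctccgctctgcGCATGCGCagcgcggctct
Cox18: ggaggttgcgcGCATGCGCgaacccgaggc
Atp5g2: gaaggctctgcGCATGCGCggccggagcca

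The last 5 show matches to the other motifs of respiratory gene promoters: the sequence TCAAGGTCA shared by ESRRA and NR5A2 in *Cox20* (chr1:178318658-178318686, plus strand) and *Atp5g3* (chr2:73911360-73911388, plus strand), the YY1 core AANATGGC in *Ndufa9* (chr6:126849097-126849126, minus strand) and *Ndufc1* (chr3:51408915-51408944, minus strand), and the ETS consensus CCGGAAGT in *Atp5j* (chr16:84834847-84834876, minus strand).
Cox20: cgggaggttgTCAAGGTCAccaaagctag
Atp5g3: gggaagacgcTCAAGGTCActttgtaaca
Ndufa9: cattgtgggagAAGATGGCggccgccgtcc
Ndufc1: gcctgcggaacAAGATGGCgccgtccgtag
Atp5j: cggagccagggCCGGAAGTagaacggtggc

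NFIC peaks were named for respiratory chain and ATP synthase genes about as often as for other genes. RefSeq holds 104 protein-coding genes whose names meet the rule. Of these, 1 was left out because the list names it otherwise at a peak, so a gene with a peak was dropped. Of the other 103, 37 (35.9%, 95% Wilson interval 27.3 to 45.5) had a peak. The share was 37.2% of all 20996 protein-coding genes, which still include the dropped gene. A peak near the TSS, defined as a peak centre from -1000 to 1000 bp by the deposited distance, was present for 22 members (21.4%, 14.5 to 30.2), beside 18.1% of all protein-coding genes. Both shares of the members lay close to the background, and both intervals include it. The intervals cover counting error only. Of the 37 genes, 26 had 1 peak, 11 had 2 and 0 had 3 or more. Genes of the mitochondrial ribosome, which are also nuclear genes for mitochondrial proteins, had a peak in 25 of 78 cases (32.1%, 22.7 to 43.0) and a peak near the TSS in 16 (20.5%). Genes of the proteasome, which degrades proteins outside mitochondria, had a peak in 13 of 40 cases (32.5%, 20.1 to 48.0) and a peak near the TSS in 7 (17.5%).

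Among the complexes, counted by the names in the list, the share of genes with a peak near the TSS ran from 0 of 4 in complex II to 6 of 17 in complex V. Peaks named for a neighbouring gene are not in these counts and are given below. In complex I, 13 of 45 genes (28.9%, 17.7 to 43.4) had a peak and 8 (17.8%) had a peak near the TSS. In complex II, 1 of 4 genes had a peak, which was not near the TSS. In complex III, 4 of 8 genes had a peak (50.0%, 21.5 to 78.5) and 2 had a peak near the TSS. In complex IV, 12 of 29 genes had a peak (41.4%, 25.5 to 59.3) and 6 had a peak near the TSS (20.7%). In complex V, 7 of 17 genes had a peak (41.2%, 21.6 to 64.0) and 6 had a peak near the TSS (35.3%, 17.3 to 58.7). The intervals of all complexes overlap, and no order between complexes can be read at these numbers of genes. Structural subunits (30 of 85, 35.3%) and assembly factors (7 of 18, 38.9%) had peaks at similar shares, with intervals of 26.0 to 45.9 and 20.3 to 61.4.

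**Figure D1:**
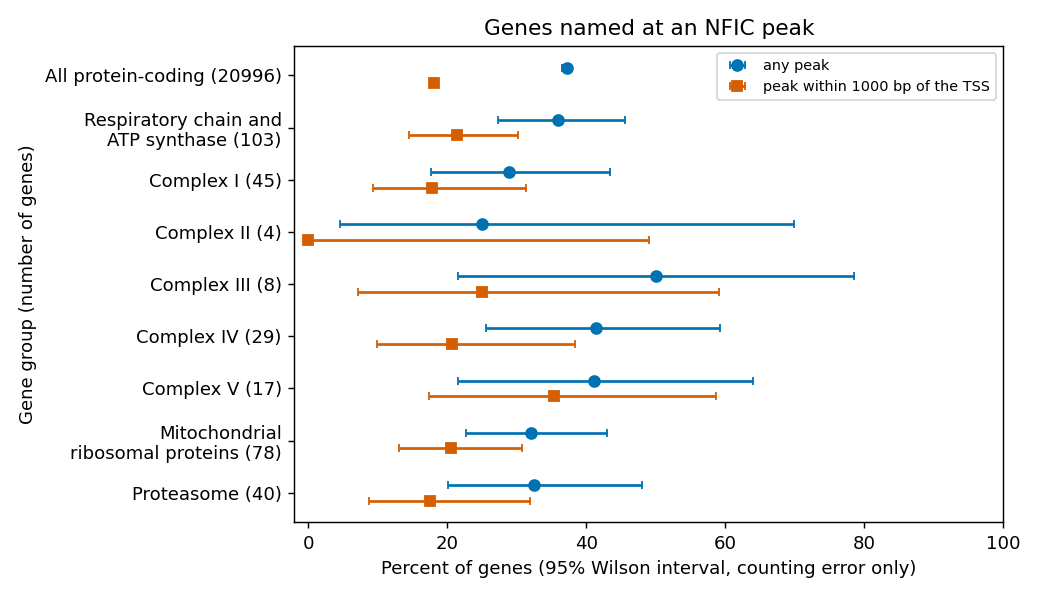
Percent of genes named at an NFIC peak (circles) and at a peak within 1000 bp of the TSS (squares), for all protein-coding genes, the respiratory chain and ATP synthase genes, each complex and both comparison lists. Bars are 95% Wilson intervals, and the number of genes is in brackets. The intervals of each complex include the shares over all protein-coding genes.

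Of the 48 peaks, 22 (45.8%, 32.6 to 59.7) were within 1000 bp of the TSS, beside 29.6% of all 13679 peaks of protein-coding genes. The share was 38.1% (25 to 53.2) for mitochondrial ribosomal genes and 36.8% (19.1 to 59.0) for proteasome genes, and these intervals overlap that of the members. With only the upper 2 quartiles of score, the share of member peaks was 32.1% (17.9 to 50.7), and this interval includes the 29.6% found over peaks of any score. A total of 20 of the 22 near peaks were annotated as promoter-TSS, 1 as 5′ UTR (*Cox7a2*, a subunit VIIa isoform of complex IV) and 1 as intron (*Ndufv3*). Most were upstream: 17 of 22 (77.3%, 56.6 to 89.9) were upstream, beside 56.4% of all near peaks, and 15 (68.2%) were within 150 bp, beside 50.4%. The median distance was -94 bp, and that of all near peaks was -27 bp. The limit of 1000 bp separates *Ndufv3* (915 bp) from a second peak of *Uqcrq* (-1005 bp) and a second peak of *Cox19* (1027 bp), which lay just outside.

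**Figure D2:**
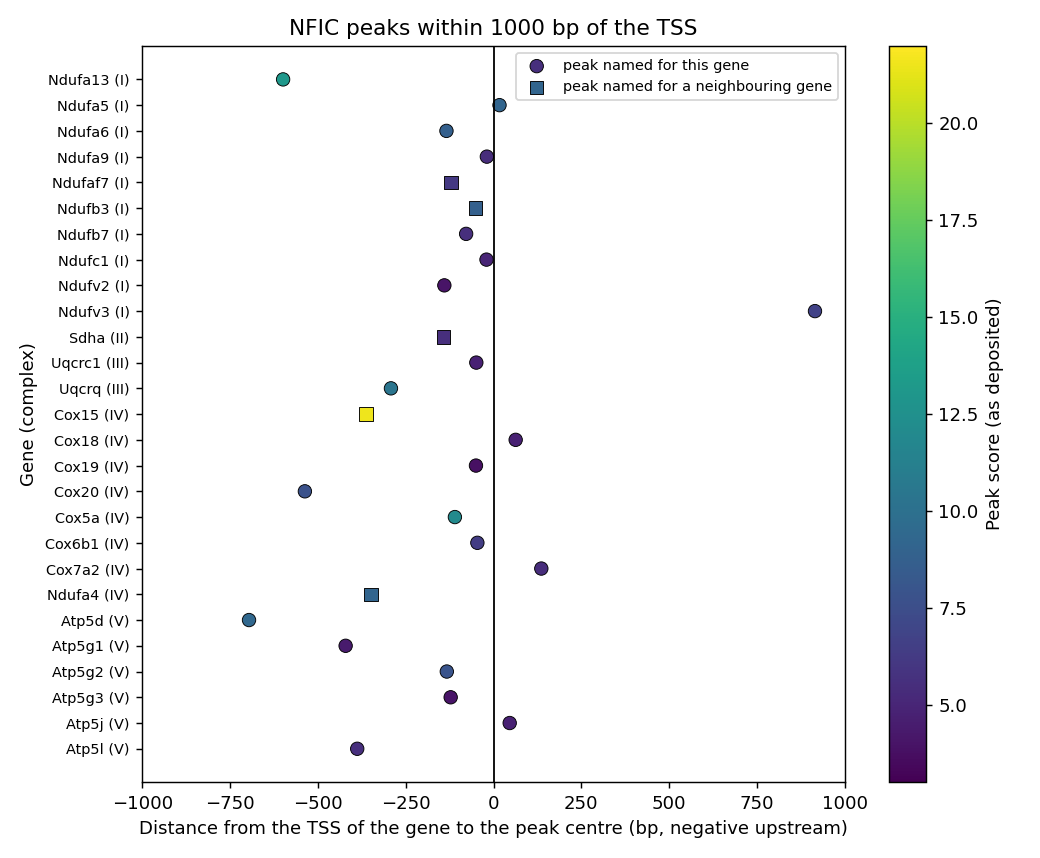
Distance in bp from the TSS to the peak centre for each member with a peak within 1000 bp, with the complex in brackets and the deposited peak score as colour. Circles are the 22 peaks named for the member, squares are 5 peaks named for a neighbouring gene; 15 of the 22 circles lie within 150 bp of the TSS.

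Peaks near the TSS had a lower median score than the distal peaks of the same gene group. The score is the authors' own value per peak, on a scale not given in the sources used here. It ranged from 3.39 to 68.1 in the list, with a median of 6.57. The median was 7.67 for all member peaks, 5.58 for the 22 near the TSS (range 3.78 to 13.1) and 8.27 for the other 26 (range 3.39 to 20.7). Over all protein-coding genes the corresponding medians were 6.37 and 6.77. A score at or above the list median was found for 9 of 22 near peaks (40.9%, 23.3 to 61.3), beside 48.6% of all near peaks. It was found for 19 of 26 distal peaks (73.1%, 53.9 to 86.3), beside 52.8% of all distal peaks of the list, members included. The difference was not tested, since it has no replicate error. The focus ratio, the fraction of tags at the expected position of a peak, had a median of 0.674 in members and 0.684 in the list.

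**Figure D3:**
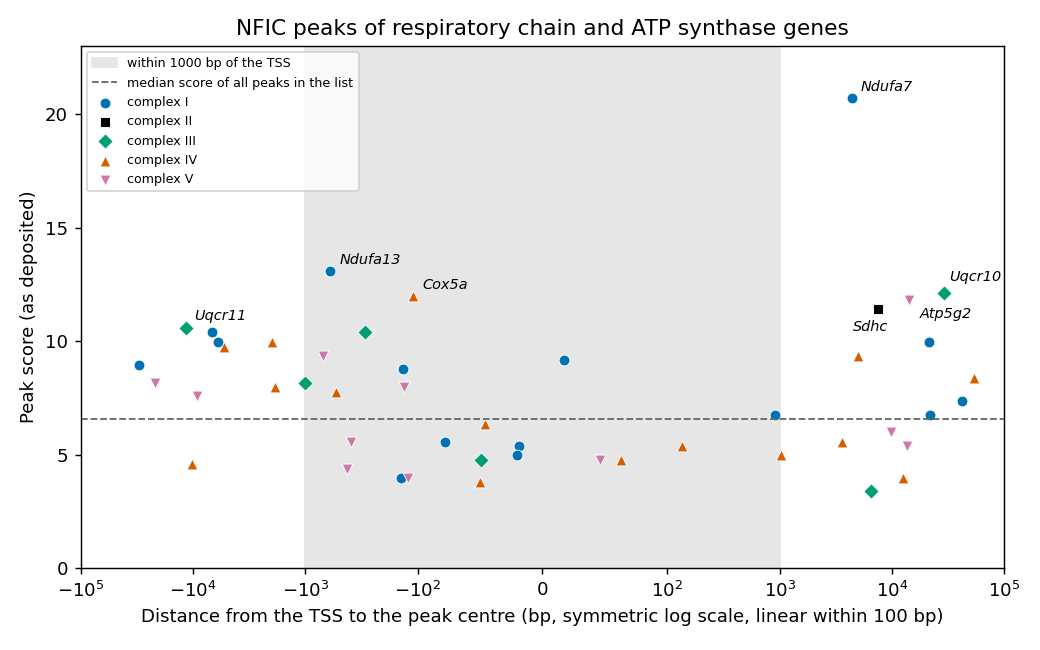
Deposited peak score against distance in bp from the TSS (symmetric log scale) for the 48 member peaks, coloured by complex. The grey band spans 1000 bp on both sides of the TSS and the dashed line is the list median of 6.57; the highest score, 20.7 at *Ndufa7*, lies in an intron outside the band.

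In complex I, which oxidises NADH, the strongest peak was in an intron of *Ndufa7*, an accessory subunit, 4377 bp from the TSS, with a score of 20.7, and only 1.46% of all peaks had a higher score. The highest score near a TSS was that of *Ndufa13* (13.1 at -599 bp), an accessory subunit also known as GRIM-19, and 8.99% of all peaks scored higher. *Ndufa5* had a peak at 17 bp (9.16) and *Ndufa6*, an accessory subunit of the LYR protein family, a peak at -134 bp (8.76). The near peaks of *Ndufb7* (-78 bp, 5.58), *Ndufa9* (-19 bp, 5.38), *Ndufc1* (-20 bp, 4.98) and *Ndufv2* (-140 bp, 3.98) scored below the list median. *Ndufv1*, which carries the flavin that accepts electrons from NADH, had a pair of intergenic peaks at -6034 bp (9.96) and -6707 bp (10.4). *Ndufv2*, its iron-sulphur partner, had the weak promoter peak given above. *Ndufv3* had a peak at 915 bp (6.77) in an intron. The other complex I peaks were distal, at *Ndufb4* (-30536 bp, 8.96), *Ndufb9* (42078 bp, 7.37, inside *Mtss1*) and the assembly factor *Ndufaf8* (21414 bp, 9.96, and 21883 bp, 6.77, both inside *Slc38a10*).

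In complex II, which oxidises succinate, *Sdhc*, one of the membrane anchor subunits, had a peak in its own intron at 7503 bp with a score of 11.4. *Sdha* (flavoprotein), *Sdhb* (iron-sulphur subunit) and *Sdhd* (the other anchor) had no peak named for them. In complex III, *Uqcrq*, a small subunit, had a promoter peak at -292 bp (10.4) and a second at -1005 bp (8.17), and both were above the list median. *Uqcrc1*, a core protein, had a weak promoter peak at -49 bp (4.78). *Uqcr10* and *Uqcr11*, both small subunits, were named only at distal peaks: *Uqcr10* at 28977 bp inside *Ascc2* (12.1) and at 6543 bp (3.39, equal to the lowest score in the list), and *Uqcr11* at -11642 bp inside *Tcf3* (10.6). *Uqcrb*, *Uqcrc2*, *Uqcrfs1* (the Rieske iron-sulphur protein) and *Uqcrh* had no peak.

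Among the promoter peaks named for complex IV genes, that of *Cox5a*, a structural subunit, had the highest score, 12.0 at -110 bp, and 12.2% of all peaks scored higher. A stronger peak near *Cox15* was named for its neighbour and is described below. *Cox6b1* (-46 bp, 6.37) and *Cox7a2* (136 bp, 5.38) scored below the median of the list. Among the assembly factors, *Cox20*, a chaperone of the mitochondrially encoded subunit II, had a peak at -537 bp (7.77), and *Cox18*, which acts in membrane insertion of the same subunit, had a peak at 63 bp (4.78). *Cox19*, a copper-related factor, had the lowest score near any member TSS (-50 bp, 3.78) and a second peak at 1027 bp (4.98). *Cox17*, the copper chaperone, had peaks at -1849 bp (7.97) and 3596 bp (5.58). Both enzymes that make haem A had a peak in an intron of their own, *Cox10* at 53416 bp (8.37) and *Cox15* at 5007 bp (9.36). Where isoform sets exist, the peaks were spread without a common order. *Cox4i2* had a distal peak inside *Bcl2l1* (12539 bp, 3.98) and *Cox4i1* had none, *Cox6a1* had a distal peak (-10118 bp, 4.58) and *Cox6a2* had none, and *Cox6b1* and *Cox7a2* had a near peak whereas *Cox6b2*, *Cox7a1* and *Cox7a2l* had none. *Cox8a*, *Cox8b* and *Cox8c* had no peak. *Ndufa4l2*, a paralogue of the complex IV subunit *Ndufa4*, had peaks at -5254 bp (9.76, at the end of *Stac3*) and -1960 bp (9.96).

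In complex V, the 3 genes that encode the identical c subunit of the proton-driven ring all had a peak near the TSS: *Atp5g1* at -421 bp (4.38), *Atp5g2* at -133 bp (7.97) and *Atp5g3* at -122 bp (3.98). *Atp5g2* also had a stronger intergenic peak at 14221 bp (11.8). *Atp5d*, the delta subunit of the central stalk, had the highest score near a TSS in this complex (-696 bp, 9.36). *Atp5l*, subunit g of the membrane part, had a promoter peak at -388 bp (5.58) and a second inside *Ube4a* at -21805 bp (8.17). *Atp5j*, subunit F6 of the peripheral stalk, had a promoter peak at 46 bp (4.78) and a second in the 3′ UTR of *Jam2* (9773 bp, 5.98). *Atp5o*, which encodes OSCP, the link between the stalk and the catalytic head, was named only at distal peaks (-9243 bp, 7.57, and 13679 bp, 5.38, in the 3′ UTR of *Itsn1*). The genes of the catalytic head, *Atp5a1* and *Atp5b*, and the other genes of the central stalk, *Atp5c1* and *Atp5e*, had no peak.

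Of the 26 peaks farther than 1000 bp from the TSS, 6 lay in the member itself, 10 in the body of another gene and 10 between genes. Beyond 10000 bp lay 12 of the 48 member peaks, beside 6661 of all 13679 peaks of protein-coding genes. Consequently, 15 of the 37 members were named only at peaks that were not near their TSS, and 22 had a near peak. Over all protein-coding genes, 3807 of the 7805 with a peak had a near one. The deposited annotation gives each peak to 1 gene by its nearest TSS, which does not show on which gene a distal site acts.

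The same rule also hides peaks near the TSS of members that share a promoter region with a neighbour. When the peak centre was set against all RefSeq TSSs, 27 of the 103 members (26.2%, 18.7 to 35.5) had a peak within 1000 bp, beside 20.4% of all protein-coding genes. The 5 further members were *Cox15*, *Ndufa4*, *Ndufaf7*, *Ndufb3* and *Sdha*. By complex, 10 of 45 genes in complex I and 1 of 4 in complex II then had a peak near the TSS. In complexes III, IV and V the counts were 2 of 8, 8 of 29 and 6 of 17. The strongest of these peaks, with a score of 21.5 exceeded by 1.22% of all peaks, lay at -363 bp of *Cox15* and was named for *Cutc*, a copper homeostasis gene, at 340 bp. It scored higher than all 48 peaks named for members. The peak at *Ndufb3* (-52 bp) was named for *Fam126b* at -12 bp (8.76), and that at *Ndufa4* (-349 bp) for *Phf14* at -30 bp (9.16). The peak at *Ndufaf7*, a methyltransferase of complex I assembly, was at -121 bp and named for *Cebpz* at 56 bp (6.17), and that at *Sdha* was at -143 bp and named for *Ccdc127* at 66 bp (5.58). Conversely, 3 of the 22 near peaks named for members also lay within 1000 bp of another coding TSS. These were *Ndufa13* with *Tssk6* (973 bp), *Ndufa5* with *Asb15* (-471 bp), and *Atp5j* with *Gabpa* (-194 bp), the gene of the ETS factor named above. For such peaks the genes cannot be told apart.

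NFI sites were less common in near than in distal peaks over the whole list, and the members had the same order with intervals that overlap. Within 200 bp centred on the peak, on both strands and with at most 1 mismatch, 6 of 22 near peaks (27.3%, 13.2 to 48.2) held an NFI site, beside 38.5% of all 4055 peaks near a coding TSS. They were those of *Ndufa13*, *Ndufa6*, *Ndufb7*, *Ndufv3*, *Cox5a* and *Atp5g3*. An exact site was found in 0 of 22, beside 5.47%. Among distal peaks, 14 of 26 (53.8%, 35.5 to 71.2) held a site, beside 56.7% of 11489, and the 1 exact site was that of *Uqcr11* printed above (3.85%, beside 16.3%). A single arm of the site, TTGGCA, was found in 1 near peak (*Uqcrq*, 4.55%, beside 19.3%) and in 12 distal peaks (46.2%, beside 38.9%), including that of *Sdhc*. The single arm can overlap a full site and the CCAAT motif on the other strand. Near peaks with an NFI site had a median score of 7.77 and those without one of 5.38, whereas the medians in distal peaks were 8.27 and 8.77. A match describes letters in the window and does not show binding.

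Among the motifs of other factors, 2 had intervals in the near peaks of members that did not overlap those of all near peaks. The NRF1 core was present in 4 of 22 (18.2%, 7.31 to 38.5), beside 2.74% (2.28 to 3.29) of all near peaks. Searched in the deposited peaks in place of 200 bp, the share of members was 13.6% (4.75 to 33.3). The 4 genes, printed above, belong to complexes I, III, IV and V. The ESRRA and NR5A2 sequence was present in 2 of 22 (9.09%, 2.53 to 27.8), beside 0.271% (0.152 to 0.485), and rests on 2 peaks. The YY1 core was found in 2 (9.09%, beside 4.19%) and the ETS consensus in 1 (4.55%, beside 3.77%), with intervals that include the background. The SP motif GGGCGG was found in 8 (36.4%, beside 55.4%), CCAAT in 4 (18.2%, beside 23.2%), and the cyclic AMP response element TGACGTCA in 0 (beside 1.36%). In the 26 distal peaks the NRF1, YY1, ETS, TGACGTCA and TCAAGGTCA motifs were all at 0 (interval 0 to 12.9%). Over all 11489 distal peaks of the list, these motifs were also rare, from 0.244% for TGACGTCA to 3.18% for YY1. The interval of the members includes these shares, so the absence does not set the members apart from other distal peaks. The near peaks had a median GC content of 61.5%, beside 65.5% for all near peaks, and a median CpG observed over expected ratio of 0.875, beside 0.766.

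The same motifs were counted in the promoters, whether bound or not, to see what the gene group carries independently of peaks. RefSeq promoters from 250 bases before to 50 after the TSS were matched for 84 of the 103 genes. The NRF1 core was present in 12 of 84 (14.3%, 8.37 to 23.3), beside 3.73% of 16852 coding promoters, and the YY1 core in 19 (22.6%, 15 to 32.6), beside 6.80%. The ETS consensus was present in 8 (9.52%, 4.91 to 17.7), beside 5.45%, and an NFI site in 9 (10.7%, 5.74 to 19.1), beside 15.8%. The ESRRA and NR5A2 sequence was present in 2 (2.38%, 0.655 to 8.27), beside 0.332%. Promoters of members were also split by whether the list names a near NFIC peak for the gene. An NFI site was found in 5 of 20 (25%, 11.2 to 46.9) with such a peak, and in 4 of 64 (6.25%, 2.46 to 15) of the others. Members whose near peak is named for a neighbour were not kept out of the 64, so the split follows names and not occupancy. Over all coding genes with a near peak named for them the share was 24.5%. The NRF1 core was found in 4 of 20 and in 8 of 64 (12.5%), the YY1 core in 3 of 20 and in 16 of 64 (25%), and the ETS consensus in 0 of 20 and in 8 of 64. The intervals of the promoters with and without a near peak by name overlap for all 4 motifs.

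**Figure D4:**
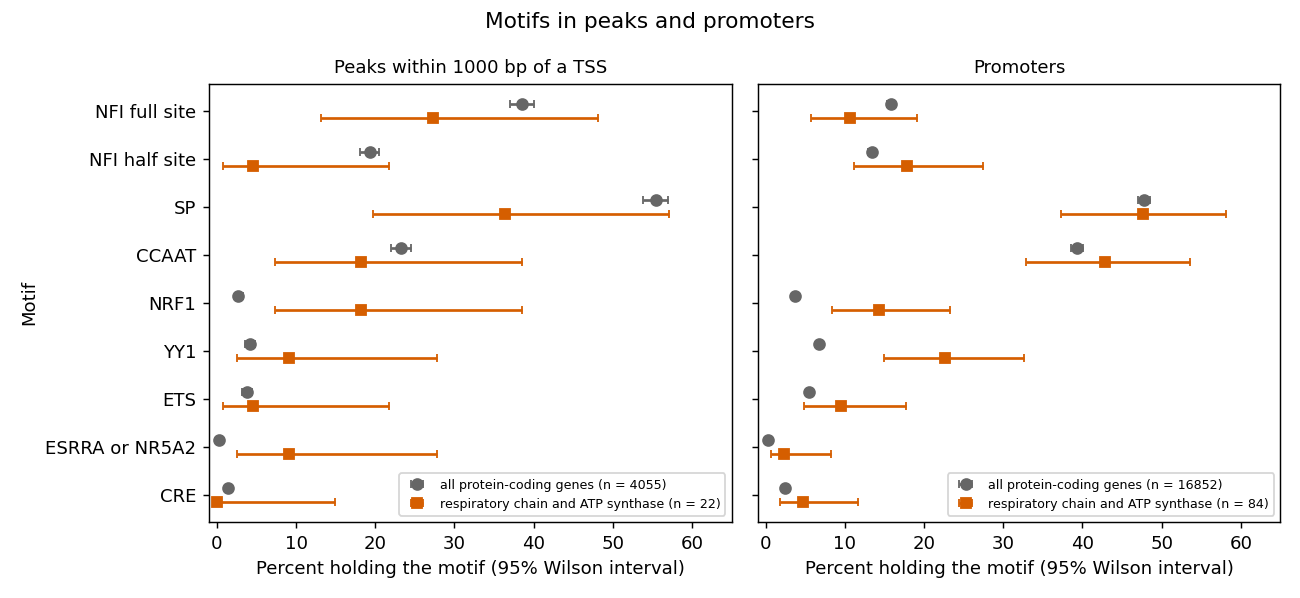
Percent of windows holding each motif, with 95% Wilson intervals, for respiratory chain and ATP synthase genes (squares) and all protein-coding genes (circles), in 200 bp around peaks within 1000 bp of a TSS (left) and in promoters (right). The NRF1 core stands at 18.2% beside 2.74% in peaks and at 14.3% beside 3.73% in promoters.

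Other genes of the same pathway, whose names do not meet the rule, were counted from a separate list of assembly or expression factors, cytochrome *c* genes and transcriptional regulators. A total of 26 of 52 (50.0%, 36.9 to 63.1) had a peak, beside 37.2% of all protein-coding genes, and 18 (34.6%, 23.2 to 48.2) had a peak near the TSS, beside 18.1%, with a median score of 5.78 over 37 peaks, of which 48.6% (33.4 to 64.1) were near the TSS. Assembly or expression factors of complex IV had a peak in 9 of 15 cases (60.0%, 35.7 to 80.2). Assembly factors of complex II had a peak in 3 of 4 (75%, 30.1 to 95.4), and both intervals are wide. The highest score in this list was at *Taco1*, a translational activator of the mitochondrial subunit I (-102 bp, 14.1). *Sdhaf1*, an assembly factor of complex II, had a promoter peak at -41 bp (7.57) and a pair of distal peaks at 2848 bp (12.1) and -14277 bp (12.0). *Tmem126b* (complex I assembly) had a peak at -210 bp (10.6) and *Sdhaf3* at -149 bp (10.2). *Cycs*, the somatic cytochrome *c*, had an intergenic peak at 29746 bp (5.98), and *Cyc1*, the cytochrome of complex III, had none. Among 13 regulators, 5 had a peak (38.5%, 17.7 to 64.5), close to the 37.2% of all protein-coding genes. *Ppargc1a*, the coactivator PGC-1 alpha, had 4 peaks, the closest at 1410 bp (5.78). *Yy1* had a peak at -784 bp (5.98) and *Pprc1* a peak at 187 bp (4.18). No peak was named for *Nrf1*, *Gabpa*, *Gabpb1*, *Esrra* or *Tfam*, but the peak of *Atp5j* lay at -194 bp of *Gabpa*. Set against all RefSeq TSSs, 24 of the 52 genes (46.2%, 33.3 to 59.5) had a peak within 1000 bp, beside 20.4% of all protein-coding genes. For the regulators this was 5 of 13 (38.5%, 17.7 to 64.5), beside 2 by name.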

How the data were processed

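NFIC ChIP-Seq was performed in 3 libraries of wild type mouse pancreas, with 1 library of input DNA. The submitters' processing notes name BWA, Picard, MACS2 and mm10. The methods, in a section on NFIC and downloaded ChIP-Seq data, name RUbioSeq+ for alignment and peak calling. The same section names HOMER for merging, annotation and also peak calling, and does not say which steps made this list. Parameters are not given in the sources used here. The authors deposited 1 merged list with the peak score, on a scale that is not stated. The focus ratio is a deposited fraction of tags. The list holds 0 columns of values per library, so neither depth nor replicate error could be given. Members and gene lists were chosen with earlier results of these data known.

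Peaks were counted per gene, and the background was all 20996 protein-coding RefSeq genes with a curated transcript on a chromosome, expressed in pancreas or not. Deposited distances equalled those to RefSeq TSSs for 45 of 48 member peaks. Fixed motifs were searched on both strands in GRCm38, tested on simulated data with 100% of planted motifs recovered. All 37 members with a peak are named. Members without a peak were named as isoform sets, complexes or shared promoters, and the set of complex I core subunits is not reported here. The other pathway genes given by name were chosen after their values were seen. Shares have 95% Wilson intervals (statsmodels 0.14.6), which cover counting error only. No test between groups was run. Alternatives were score quartiles, TSS windows, motif windows and mismatches.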

Additional observations from a re-analysis of the deposited data

How the results depend on the processing

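Of 69 alternative values, 57 moved by less than their counting interval or 1.5 times and 12 moved more. With only peaks of the upper 2 quartiles of score (the study's own definition of high affinity), 23 members had a peak (22.3%, beside 21.9% of all protein-coding genes). At this limit 9 members had a peak near the TSS, for which no share over all genes was computed. The share of member peaks near the TSS was then 32.1%, the median score was 9.36, and both the ETS and the YY1 share of near peaks were 0%. The ETS share, which rests on 1 peak, was also 0% with the upper 3 quartiles and with a window of -1000 bp to the TSS. With that window, 1 member peak also lay near another coding TSS in place of 3, and with other genes of any biotype there were 5. Without a mismatch the NFI share of near peaks was 0%. In windows of 400 bp the SP share was 59.1%. The NRF1 share stayed within its interval in all alternatives run. No paired analysis was possible because the list has no values per library, and for the same reason no library could be left out. The unknown depth limits the genes without a peak: no peak in the list does not show that a site was unoccupied.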
